A study of Mus musculus with 201 samples.

Results

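The cells described here were *Fos*-low whole cells, dentate granule cells of the mouse hippocampus that held little or no *Fos* mRNA when they were lysed. They came from mice injected with pentylenetetrazole (PTZ) or with saline. A whole cell was included if its total expected count, the sum of the estimated reads over all genes, was over 50000 and if its *Fos* level was 100 TPM or less, where TPM is a gene's share of the transcripts of a cell after correction for gene length. This left 33 of 201 samples in the series, where each sample is 1 cell: 16 of the cells were from PTZ-treated mice and 17 from saline-treated mice. Of the 82 whole cells in the series, 68 were over the limit on the total, and the other 35 of these were *Fos*-high cells (14 after PTZ and 21 after saline). The cells were chosen on a measured value, so their low *Fos* is a description and not a result.

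All mice carried a *Prox1*-GFP transgene, which marks granule cells with cytoplasmic green fluorescent protein. They received an intraperitoneal injection of PTZ or saline and were killed an hour later. The study's methods describe a pool of hippocampi from 2 mice per treatment, dissociation with a protease, sorting of single GFP+ cells by flow cytometry and amplification by Smart-seq2, which reads whole polyadenylated transcripts. The series text speaks of a single mouse. The labels name no animal. Sample titles hold a well-like position and 1 suffix per treatment, which was read here as 1 plate each, although no title says plate. The suffix of every saline-treated cell begins with frz, a tag that no PTZ-treated cell has and that the labels do not explain. Treatment, mice, plate and this tag therefore cannot be told apart, each treatment is 1 sample, and no test between treatments was possible. Differences are given with the spread over cells or with exact (Clopper-Pearson) 95% intervals of a share, which cover counting error only.

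PTZ blocks GABA-A receptors, the chloride channels through which inhibitory neurons restrain their targets, and so causes seizures. In neurons that fire strongly, calcium entry switches on immediate early genes such as *Fos*, *Arc* and *Egr1* within minutes, and these drive a later wave of genes for neuropeptides, growth factors and synaptic proteins. Granule cells are known for sparse firing, so in the animal many of them hold no *Fos* mRNA at any one time. In dissociated whole cells, however, the study found *Fos*, *Arc* and *Egr1* mRNA independent of PTZ treatment. Whether the *Fos* level of a cell here reflects its firing in the animal was not tested. PROX1 is the transcription factor that specifies granule cells, and RBFOX3 (NeuN) is a splicing factor of mature neurons.

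The depth of the PTZ-treated cells was the more uneven. Total expected counts ranged from 67212 to 2635262 (median 900749) after PTZ and from 417093 to 2696043 (median 1143671) after saline. Under 400000 counts were 6 of 16 PTZ-treated cells and 0 of 17 saline-treated cells. A count of 3 corresponded to between 0.000114% and 0.00446% of the total in PTZ-treated cells and to between 0.000111% and 0.000719% in saline-treated cells. Genes with a TPM above 1 numbered 5551 ± 1117 (SD, n = 16) after PTZ and 6028 ± 862 (SD, n = 17) after saline. After each cell was thinned to 60000 counts, they numbered 4605 ± 1000 and 4732 ± 736, so the treatments overlapped widely at equal depth.

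*Fos* itself was at 0 TPM in 4 PTZ-treated and 6 saline-treated cells. Its level was at most 2.58 TPM in the saline-treated cells, and the next saline-treated cell, outside the limit, had 190 TPM. In the PTZ-treated cells, the highest level inside the limit was 75.4 TPM, the next 12.6 TPM, and the lowest outside 424 TPM. Not all other early genes were this low, and *Jun*, described below, had a saline median of 163 TPM. *Arc*, a synaptic scaffold gene, was above 1 TPM in 5 of 16 PTZ-treated and 2 of 17 saline-treated cells, and in 1 of the 12 PTZ-treated cells other than the 4 low in 7SL RNA described below. *Egr1*, a zinc finger transcription factor gene, was above 1 TPM in 5 of 16 and 9 of 17.

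The label of granule cells held for 31 of the 33 cells. *Prox1* was above 1 TPM in every cell, from 3.56 to 400 TPM (median 155) after PTZ and from 137 to 1080 TPM (median 297) after saline. *C1ql2*, a synaptic organizer gene of granule cell mossy fibres, was at 65.4 TPM or more in every saline-treated cell and at 245 TPM or more in 14 PTZ-treated cells. It was at 0 in the other 2 PTZ-treated cells, which also had the lowest totals (67212 and 71231) and the lowest *Prox1* (3.56 and 8.28 TPM). The second of these cells held 1302 TPM of *Neurod6* and 485 TPM of *Spink8*, both markers of pyramidal neurons, and the *Fos* level of 75.4 TPM. *Neurod6* and *Spink8* were at 0 in the 14 other PTZ-treated cells and reached 1.53 and 18.9 TPM in the saline-treated cells. *Xist*, the X inactivation RNA of female cells, was at 433 and 44.4 TPM in these same 2 cells and at 0 in the 14 others. *C1ql2*, *Neurod6*, *Spink8* and *Xist* were chosen after their values were seen.

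A wider set of 4 PTZ-treated cells, which holds these 2, stood apart by their 7SL RNA, a noncoding RNA of the protein export machinery. Its gene *Rn7s1* was at 471 to 1205 TPM in the 4 cells, at 30550 to 54742 TPM in the 12 other PTZ-treated cells and at 10208 to 27145 TPM in the saline-treated cells. The totals of the 4 cells were 67212 to 230719 counts. Their summed TPM of 5 Y-linked genes was 2.68 to 24.1, against 125 to 744 in the other PTZ-treated cells and 86.7 to 894 in the saline-treated cells. Results are therefore also given without the 2 cells that lacked *C1ql2* and without these 4 cells, both chosen after the values were seen.

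**Figure D1:**
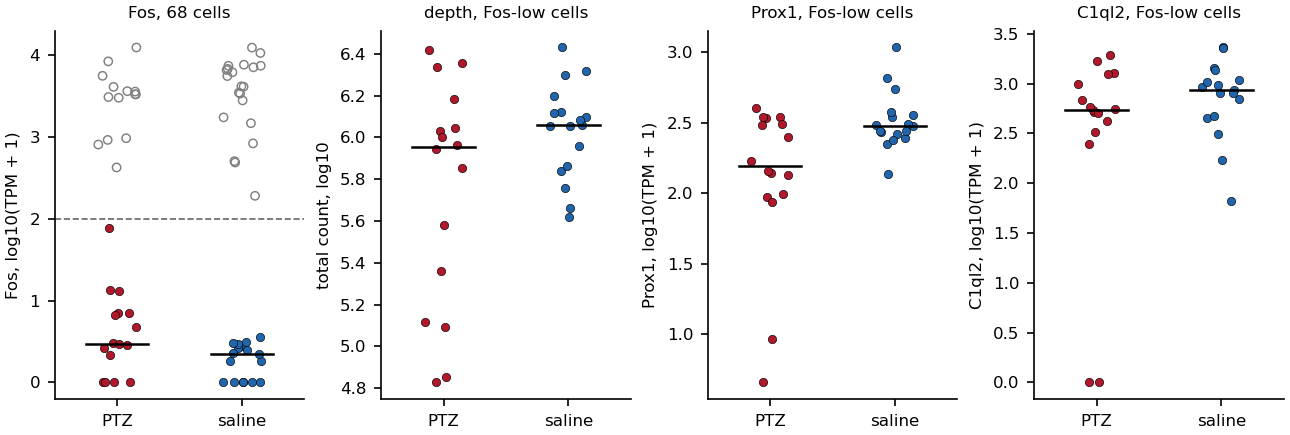
Each point is 1 cell, jittered sideways, and bars are medians of the *Fos*-low cells (filled); the vertical axes are log10(TPM + 1) for *Fos*, *Prox1* and *C1ql2* and log10 of the total count for depth. Open points in the *Fos* panel are *Fos*-high cells above the dashed limit of 100 TPM, and 2 PTZ-treated cells lie at the bottom of the depth, *Prox1* and *C1ql2* panels.

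Markers of other cell types were sparse in both treatments. *Gfap*, *Aqp4* and *Gja1* of astrocytes, *Aif1* of microglia, *Mog* of oligodendrocytes, *Cldn5* of endothelium and *Slc32a1* of inhibitory neurons were at 0 in all 33 cells. The summed TPM of 11 microglial markers ranged from 0 to 5.48 after PTZ and from 0 to 167 after saline. The sum over 10 astrocyte markers ranged from 0 to 322 and from 0 to 234 TPM, respectively, and its gene with the highest level, *Slc1a2*, is also known from neurons. The sum over 12 oligodendrocyte markers ranged from 0 to 163 TPM and from 0 to 173 TPM, and that over 9 endothelial markers from 0 to 18.7 and from 0 to 30.2 TPM. The sum over 10 inhibitory neuron markers ranged from 0 to 793 TPM and from 0 to 648 TPM. *Gad1*, which granule cells also express, was above 1 TPM in 11 of 16 and 14 of 17 cells. The sum over 10 pyramidal neuron markers ranged from 0 to 2068 TPM after PTZ, with a median of 141 TPM, and from 0 to 331 TPM after saline, with a median of 145 TPM. None of these lists had a gene past either limit described below, but few of their genes were compared. For presence these were 2 pyramidal, 2 inhibitory, 1 astrocyte, 1 oligodendrocyte, 1 endothelial and 0 microglial genes, and for level 0. With 1.19% of all genes past the presence limit, a count of 0 in such lists is near the background.

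Few genes differed widely between the treatments in the share of cells that held them. The first measure was presence, the share of cells in which a gene was above 1 TPM, among 7928 genes found in at least 10 of the 33 cells. A gene passed the limit if its share differed by at least 40 percentage points and its mean TPM at least 2-fold in the same direction. By this measure 94 genes (1.19% of those compared) passed, of which 22 (0.277%) were present in more cells after PTZ and 72 (0.908%) in fewer. The median difference over all genes compared was -4.04 percentage points, with 2707 genes higher and 4888 lower after PTZ. It was -0.588 among cells over 400000 counts and also after thinning to 400000 counts. When any 1 of the 33 cells was left out, 15 of the 22 and 42 of the 72 genes always stayed past the limit. Without the 2 cells that lacked *C1ql2*, the counts were 25 and 80, and 16 and 47 of the original genes were among them. Without the 4 cells low in 7SL RNA, they were 38 and 106, with 17 and 48 of the original genes.

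**Figure D2:**
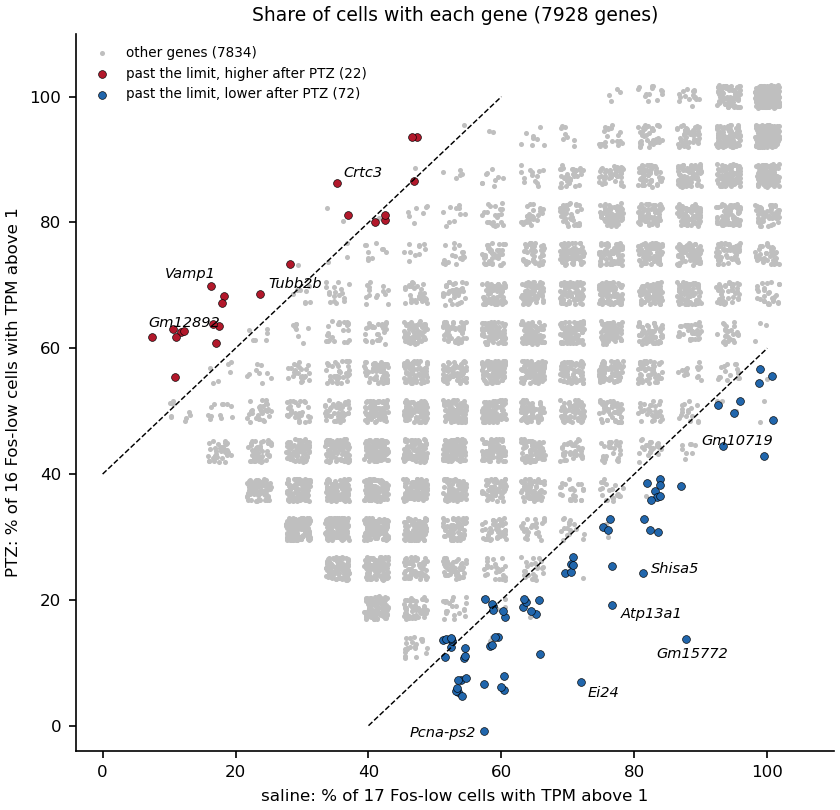
Each point is 1 of 7928 genes, placed by the percentage of saline-treated (horizontal) and PTZ-treated (vertical) *Fos*-low cells in which it was above 1 TPM, with a small jitter. Dashed lines mark a difference of 40 percentage points; 22 genes were past the limit on the upper side (red) and 72 on the lower side (blue), and the jitter carries some points across a line.

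The genes present in more cells after PTZ included *Crtc3*, *Inf2*, *Vamp1*, *Il11ra1*, *Fam105a*, *Ppie*, *Rundc3a* and *Ccni*. *Crtc3* encodes a coactivator of the transcription factor CREB. It ranged from 0 to 97.4 TPM (median 22.4) after PTZ and from 0 to 60.5 TPM (median 0) after saline. It was present in 14 of 16 PTZ-treated cells (87.5%, with an exact interval from 61.7 to 98.4%), and 6 of 17 saline-treated cells held it (35.3%, 14.2 to 61.7%). The ranges overlapped, with 3 PTZ-treated cells above every saline-treated cell.

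*Vamp1*, which encodes a vesicle SNARE protein of nerve terminals, ranged from 0 to 547 TPM (median 85.0) after PTZ and from 0 to 114 TPM (median 0) after saline. It was present in 11 of 16 and 3 of 17 cells (68.8% and 17.6%), and 6 PTZ-treated cells were above every saline-treated cell. *Il11ra1*, the interleukin 11 receptor alpha chain gene, ranged from 0 to 541 TPM (median 58.1) after PTZ and from 0 to 105 TPM (median 0) after saline, and was present in 10 of 16 and 2 of 17 cells. *Inf2*, a formin gene of actin filament assembly, was also present in 11 and 3 cells, with highest levels of 236 and 64.8 TPM.

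*Fam105a* and *Ppie*, a cyclophilin gene of the spliceosome, were both present in 10 PTZ-treated and 2 saline-treated cells. *Rundc3a*, a RUN domain gene, and *Ccni*, a cyclin gene, were both present in 15 and 8 cells. The median of *Ccni* was 110 TPM after PTZ and 0 after saline, although both ranges began at 0. *Tubb2b*, a beta-tubulin gene of developing neurons, was present in 11 and 4 cells with medians of 41.9 and 0 TPM. All of these genes stayed past the limit in each of the 33 sets that left 1 cell out, without the 2 cells that lacked *C1ql2* and without the 4 cells low in 7SL RNA. At other depths some fell short of 40 points. After thinning to 60000 counts the differences of *Crtc3*, *Ppie*, *Ccni*, *Rundc3a* and *Tubb2b* were 39.7, 37.9, 33.8, 33.8 and 38.6 points, and that of *Rundc3a* was 37.1 after thinning to 400000. With presence set at a count of 5, *Crtc3*, *Ppie*, *Rundc3a* and *Tubb2b* differed by 33.5, 38.2, 34.2 and 32.4 points.

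The genes present in fewer cells after PTZ included *Ei24*, *Atp13a1*, *Shisa5*, *Ddit3*, *Bin2*, *Thap1*, *Tssc1* and *Snw1*. *Ei24*, a gene of an endoplasmic reticulum membrane protein, ranged from 0 to 104 TPM (median 0) after PTZ and from 0 to 408 TPM (median 35.6) after saline. It was present in 1 of 16 PTZ-treated cells (6.25%, with an exact interval from 0.158 to 30.2%), and 12 of 17 saline-treated cells held it (70.6%, 44.04 to 89.7%), a difference of -64.3 percentage points (Newcombe 95% interval -81.3 to -31.9). That interval covers counting error over cells alone and is no test between treatments, and *Ei24* was named for its wide difference.

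*Atp13a1*, a transport ATPase gene, ranged from 0 to 200.3 TPM (median 0) after PTZ and from 0 to 299.7 TPM (median 59.4) after saline, and was present in 3 of 16 and 13 of 17 cells. *Shisa5* was present in 4 and 14 cells with medians of 0 and 76.6 TPM and almost equal highest levels of 256 and 261 TPM. *Ddit3*, the gene of the transcription factor CHOP, was at 166 TPM in the only PTZ-treated cell that held it, and its median was 87.9 TPM among the saline-treated cells, of which 10 of 17 held it.

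*Thap1*, a zinc finger transcription factor gene, was present in 2 PTZ-treated and 11 saline-treated cells. *Tssc1* was present in 4 and 13 cells and *Snw1*, a gene of splicing and transcription, in 5 and 14 cells, with saline medians of 88.3 and 77.5 TPM. *Bin2*, an adaptor gene, was present in 1 and 10 cells, but its highest level was 8.97 TPM. With presence set at 5 TPM its difference was 0.368 percentage points. The 8 genes named here as lower all stayed past the limit without the 2 cells that lacked *C1ql2* and without the 4 cells low in 7SL RNA. Thinning to 400000 counts, which left out the 6 shallow PTZ-treated cells, took *Bin2* (-21.2 points), *Thap1* (-32.9), *Tssc1* (-30.6) and *Snw1* (-36.5) under 40 points. Thinning to 60000 counts took *Bin2* (-11.8), *Thap1* (-16.9) and *Shisa5* (-39.7) under it. *Ei24*, *Atp13a1* and *Ddit3* stayed over 40 points at both depths.

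Among the 94 genes, 80 were annotated as protein coding and 13 were gene models without a descriptive symbol (13.8%, against 10.9% of the genes compared). Processed pseudogenes, intronless copies of mRNAs that sit elsewhere in the genome, numbered 5 of the 94 and 117 of the 7928 genes compared (1.48%). They included the gene with the most extreme difference in share, *Gm15772*. Gene models with the widest differences were *Gm12892* (10 of 16 and 1 of 17 cells), *Gm28062* (11 and 3) and *Gm12191* (10 and 2) on the higher side, and *Gm15772* (2 and 15), *Pcna-ps2* (0 and 10) and *Gm10719* (7 and 17) on the lower side. *Gm28062* was no longer past the limit without the 2 cells that lacked *C1ql2* or without the 4 cells low in 7SL RNA. Without the latter, *Gm12892* was present in 10 of 12 PTZ-treated cells and *Gm12191* in 10 of 12. *Pcna-ps2* was found in exactly 10 cells, so leaving out any of these took it out of the comparison. A share of 0 of 16 cells allows up to 18.8% by the count of 3 that 0 allows.

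The sequences of 2 of these pseudogenes are shown beside their parent genes because the copies differ at few bases, and a read that covers none of these could come from either. The stretches run 5′ to 3′ on the sense strand, were read from the GENCODE transcripts of GRCm38, and capitals mark the bases that differ within each pair. The *Gm15772* stretch lies at chr5:3236569-3236718 on the plus strand, in a single exon, and differs from bases 139 to 288 of the *Rpl26* coding sequence at 2 bases.

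Gm15772: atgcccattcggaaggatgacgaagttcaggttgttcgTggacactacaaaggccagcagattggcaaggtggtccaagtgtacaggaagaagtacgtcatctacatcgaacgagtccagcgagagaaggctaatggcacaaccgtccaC
Rpl26: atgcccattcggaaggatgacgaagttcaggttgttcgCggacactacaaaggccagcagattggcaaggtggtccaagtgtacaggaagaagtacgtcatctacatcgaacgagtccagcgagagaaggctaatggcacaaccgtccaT

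The *Pcna-ps2* stretch lies at chr19:9283928-9284077 on the plus strand, in a single exon, and differs from bases 550 to 699 of the *Pcna* coding sequence at 3 bases.

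Pcna-ps2: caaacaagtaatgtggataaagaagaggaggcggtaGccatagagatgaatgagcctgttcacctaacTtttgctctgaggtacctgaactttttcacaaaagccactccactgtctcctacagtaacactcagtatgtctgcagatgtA
Pcna: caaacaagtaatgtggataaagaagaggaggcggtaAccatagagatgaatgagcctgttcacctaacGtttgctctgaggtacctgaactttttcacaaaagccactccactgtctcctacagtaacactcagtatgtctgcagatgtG

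Over the whole aligned coding sequence, *Gm15772* differed from *Rpl26* at 2 of 435 bases and *Pcna-ps2* from *Pcna* at 6 of 781 bases. Of all 31-base words of these pseudogenes, 84.8% and 75.2% also occurred in the parent. RSEM divides reads that match several genes in proportion to its estimates, so the value of either copy alone is uncertain.

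In each ribosomal protein pair, one copy had the higher median after PTZ and the other the higher median after saline. *Gm12191* ranged from 0 to 866 TPM (median 330.0) after PTZ and from 0 to 14.5 TPM (median 0) after saline, while *Rpl30*, which encodes a protein of the large ribosomal subunit, ranged from 0 to 1203 TPM (median 201) and from 30.4 to 741 TPM (median 519). *Gm12191* was above every saline-treated cell in 10 of 16 PTZ-treated cells, and *Rpl30* was under the saline median in 15 of 16. The sum of both was 558 TPM after PTZ and 533 TPM after saline (medians), a ratio of 1.047.

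*Gm15772* was the copy lower after PTZ, from 0 to 74.7 TPM (median 0) after PTZ and from 0 to 714 TPM (median 175) after saline, while *Rpl26*, another gene of the large subunit, had medians of 547 and 430 TPM. Its sum with *Rpl26* had medians of 547 and 746 TPM, a saline to PTZ ratio of 1.37. The sum of *Pcna-ps2* and *Pcna*, the sliding clamp gene of DNA replication, had medians of 6.43 and 98.1 TPM, but its means were 95.7 ± 144 (SD, n = 16) and 94.96 ± 78.4 (SD, n = 17) TPM. For *Gm7658* with *Eif3m*, a translation initiation factor gene, the sums were 118 and 252 TPM, and for *Gm12892* with *Ckb*, brain creatine kinase, 931 and 679 TPM. The pairing with parents was added after the values were seen.

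**Figure D3:**
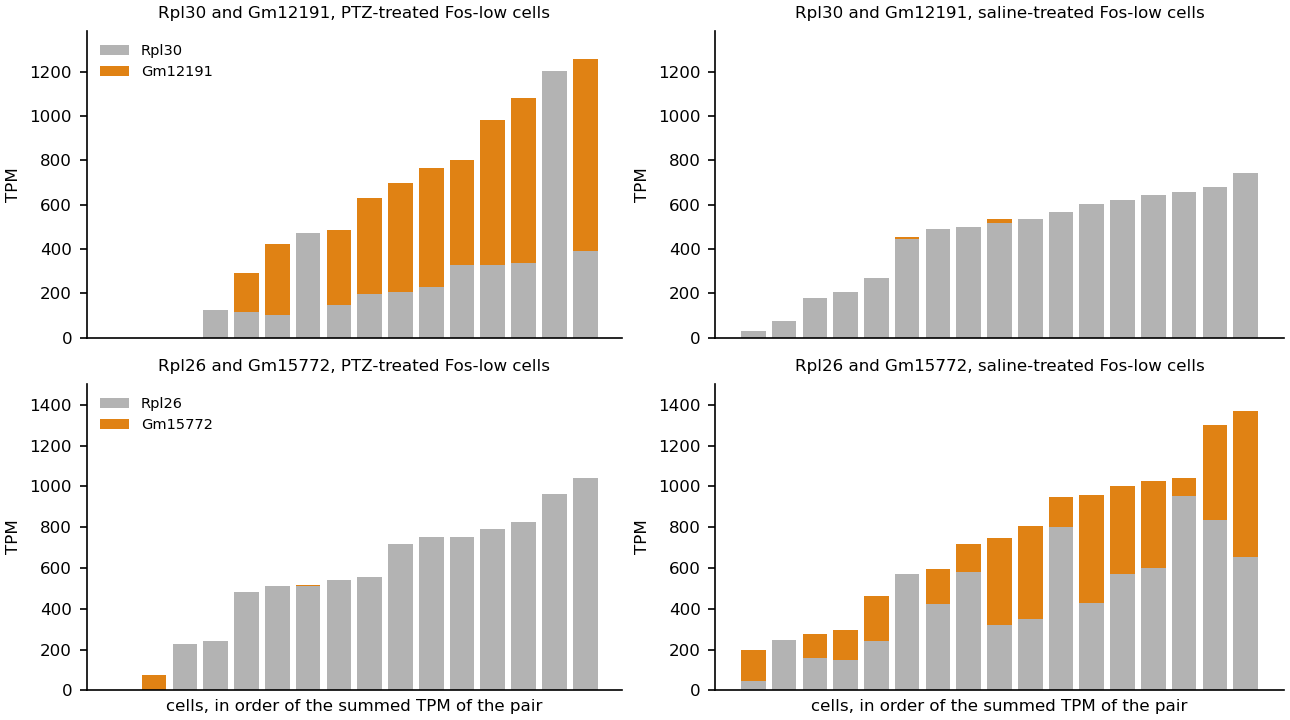
Bars are the TPM of *Rpl30* or *Rpl26* (grey) with the TPM of the pseudogene *Gm12191* or *Gm15772* stacked on top (orange) in each *Fos*-low cell, in order of the summed TPM. *Gm12191* appears mainly in PTZ-treated cells and *Gm15772* mainly in saline-treated cells, while the heights of the stacks overlap between treatments.

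The second measure was the level of genes that both treatments expressed broadly, the median TPM over cells of 1454 genes above 1 TPM in at least 80% of the cells of each treatment. A median at least 2-fold apart was found for 174 genes (12%), of which 70 (4.81%) were higher and 104 (7.15%) lower after PTZ. On counts scaled to the plain cell total the split was 110 higher and 112 lower, and with TMM factors 58 higher and 147 lower, so the excess of lower genes depended on the scaling. The median log2 ratio of PTZ over saline across the 1454 genes was -0.12 in TPM and -0.01 in the counts scaled to the plain total, and the ratios below are to be read against it. Of the 174 genes, 33 of 70 and 67 of 104 stayed past the limit in all 33 sets that left 1 cell out. Without the 2 cells that lacked *C1ql2*, 51 genes were higher and 81 lower, and 48 and 59 of these were among the original genes. Without the 4 cells low in 7SL RNA, 48 were higher and 114 lower, with 35 and 62 of the original genes. No gene was past both the presence and the level limit.

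*C1qtnf4*, which encodes a secreted protein of the C1q and TNF family, was among the broadly expressed genes with the widest ratios of medians. It ranged from 42.5 to 1134 TPM (median 359) after PTZ and from 0 to 168 TPM (median 39.6) after saline. All 16 PTZ-treated cells were above the saline median, and 10 were above every saline-treated cell. The median was 9.07-fold higher after PTZ, 10.8-fold without the 4 cells low in 7SL RNA, and the means were 422 ± 351 (SD, n = 16) and 50.1 ± 44.1 (SD, n = 17) TPM.

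*Mmp17*, a membrane-anchored matrix metalloproteinase gene, ranged from 0 to 559 TPM (median 184) after PTZ and from 0 to 163 TPM (median 20.4) after saline, and 8 PTZ-treated cells were above every saline-treated cell. *Casc4*, a Golgi protein gene, had the widest ratio of medians, 48.5 against 2.56 TPM (18.9-fold), but ranged from 0 to 258 and from 0 to 114 TPM with only 3 PTZ-treated cells above every saline-treated cell. *Itch*, a ubiquitin ligase gene, had medians of 43.4 and 6.01 TPM, and *Ocrl*, a phosphoinositide phosphatase gene, 62.2 and 9.49 TPM. The PTZ median of *Ocrl* without the 4 cells low in 7SL RNA was 13.1 TPM, 1.38-fold higher and not past the limit. *Snhg14*, a long noncoding RNA gene that lies antisense to *Ube3a*, had medians of 351 and 64.1 TPM, and 166 TPM after PTZ without those 4 cells. Its log2 ratio fell from 2.45 to 0.84, short of the limit, after thinning to 400000 counts. The reads carry no strand, so *Snhg14* and *Ube3a* cannot be told apart where they overlap.

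*Rbfox3* ranged from 0 to 603 TPM (median 263) after PTZ and from 0 to 365 TPM (median 72.9) after saline, a 3.60-fold higher median with overlapping ranges. It was above the saline median in 13 of 16 PTZ-treated cells. It was 1 of 10 neuronal markers, of which 8 were compared for level and no other passed the limit, against 12% of all genes. The median log2 ratio of these 8 was 0.24. *Adcy1*, the calcium-stimulated adenylyl cyclase gene of granule cells, ranged from 25.8 to 550 TPM (median 200.2) after PTZ and from 0 to 455 TPM (median 62.8) after saline, 3.19-fold higher. With TMM factors its log2 ratio was 0.997, just short of the limit. *Prox1* had a median 1.92-fold lower after PTZ, just short of the limit, which it passed in 8 of the 33 sets that left 1 cell out. Without the 2 cells that lacked *C1ql2* its median was 1.42-fold lower, and without the 4 cells low in 7SL RNA its medians were 277 and 297 TPM.

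Among the genes of lower level after PTZ, the widest ratios of medians were those of *Mpv17l*, *Xpnpep1*, *Bpnt1*, *Atp2b3*, *Entpd4* and *Psmc1*. *Mpv17l*, a gene of a membrane protein of mitochondria and peroxisomes, ranged from 0 to 296 TPM (median 8.41) after PTZ and from 0.53 to 305 TPM (median 104) after saline. Its median was 12.3-fold lower, and 15 of 16 PTZ-treated cells were under the saline median. *Xpnpep1*, an aminopeptidase gene, had medians of 7.31 and 66.3 TPM, and *Bpnt1*, a nucleotidase gene, 8.03 and 57.0 TPM. The log2 ratio of *Bpnt1* was -2.83, and -0.60 after thinning to 400000 counts. *Psmc1*, an ATPase subunit gene of the proteasome, had medians of 57.9 and 288 TPM, with 15 of 16 PTZ-treated cells under the saline median.

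*Atp2b3*, a plasma membrane calcium pump gene, had medians of 16.1 and 91.3 TPM and *Entpd4*, a nucleotidase gene of the Golgi, 12.7 and 66.7 TPM. Without the 2 cells that lacked *C1ql2*, *Mmp17*, *Xpnpep1*, *Atp2b3*, *Entpd4* and *Psmc1* were found in under 80% of PTZ-treated cells and left the comparison. Their medians were then still at least 5.56-fold apart in the same direction. Without the 4 cells low in 7SL RNA, *Entpd4* and *Psmc1* passed the limit, with PTZ medians of 15.3 and 77.7 TPM, and the other 3 were again out of the comparison.

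Of the genes known to follow neuronal activity, none passed a limit, which with 9 rapid and 14 delayed genes compared for presence is near the 1.19% of all genes that passed, and only 1 and 2 were compared for level. The 9 were those of 42 rapid genes found in enough cells, and their median difference in share was -14.3 percentage points against -4.04 over all genes. After thinning to 400000 counts these medians were -8.24 and -0.588. *Jun*, a partner of FOS in the AP-1 factor, ranged from 0 to 187 TPM (median 48.2) after PTZ and from 0 to 733 TPM (median 163) after saline, and was present in 11 of 16 and 16 of 17 cells. *Rheb*, a GTPase gene of the mTOR pathway, was present in 12 and 16 cells and *Btg2*, an antiproliferative gene, in 9 and 12.

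The summed TPM of the 42 rapid genes ranged from 101 to 1659 (median 877) after PTZ and from 246 to 2482 (median 804) after saline. *Fos*-high cells, which the *Fos* rule set apart, had medians of 6204 and 15237 TPM. Of 31 delayed genes, 14 were compared, with a median difference in share of -11.2 percentage points. *Bdnf*, the neurotrophin gene, was present in 14 of 16 cells at a median of 54.9 TPM after PTZ and in 13 of 17 at a median of 53.1 TPM after saline. *Nrn1*, a neurite growth gene, was in every cell, with medians of 664 and 896 TPM.

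Neuropeptide genes showed 1 member higher and 1 lower among 7 compared for level, against 12% of all genes past that limit. *Scg5* encodes the 7B2 chaperone that the prohormone convertase PC2 needs. It ranged from 0 to 811 TPM (median 243) after PTZ and from 139 to 2269 TPM (median 702) after saline, 2.89-fold lower. All but 1 PTZ-treated cell were under the saline median, and 4 were under the lowest saline-treated cell. The PTZ median of *Scg5* was 259 TPM without the 4 cells low in 7SL RNA. *Cpe*, the carboxypeptidase that trims peptide hormones, had medians of 129 and 58.9 TPM, 2.19-fold higher, and was past the limit in 24 of the 33 sets that left 1 cell out. Its log2 ratio was 0.95 with TMM factors and 0.53 after thinning to 60000 counts, both short of the limit. *Scg2*, a secretogranin gene, had medians of 423 and 752 TPM, and *Pcsk2*, the convertase PC2 itself, 65.2 and 113 TPM, and neither was past the limit. Without the 4 cells low in 7SL RNA, *Pcsk2* passed it, with a PTZ median of 49.6 TPM.

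GABA-A receptor subunit genes encode the target of PTZ, and of those reported here *Gabra4* passed the level limit. The list had 7 genes compared for level, and 12% of all genes passed that limit. *Gabra4*, an alpha subunit of extrasynaptic receptors in granule cells, ranged from 6.27 to 362 TPM (median 136) after PTZ and from 104 to 645 TPM (median 355) after saline. Its median was 2.62-fold lower, with 14 of 16 PTZ-treated cells under the saline median. Its PTZ median was also 136 TPM without the 4 cells low in 7SL RNA.

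*Gabra2* and *Gabrb2*, also subunit genes, did not pass. *Gabra2* had medians of 556 TPM after PTZ and 392 TPM after saline, and *Gabrb2* 157 and 237 TPM. The delta subunit gene *Gabrd*, a granule cell marker, was present in 10 of 16 and 15 of 17 cells. The median log2 ratio of the 7 broadly expressed subunit genes was -0.34 against -0.12 over all genes. Without the 2 cells that lacked *C1ql2* it was -0.12 against -0.11, and without the 4 cells low in 7SL RNA 0.00073 against -0.13.

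**Figure D4:**
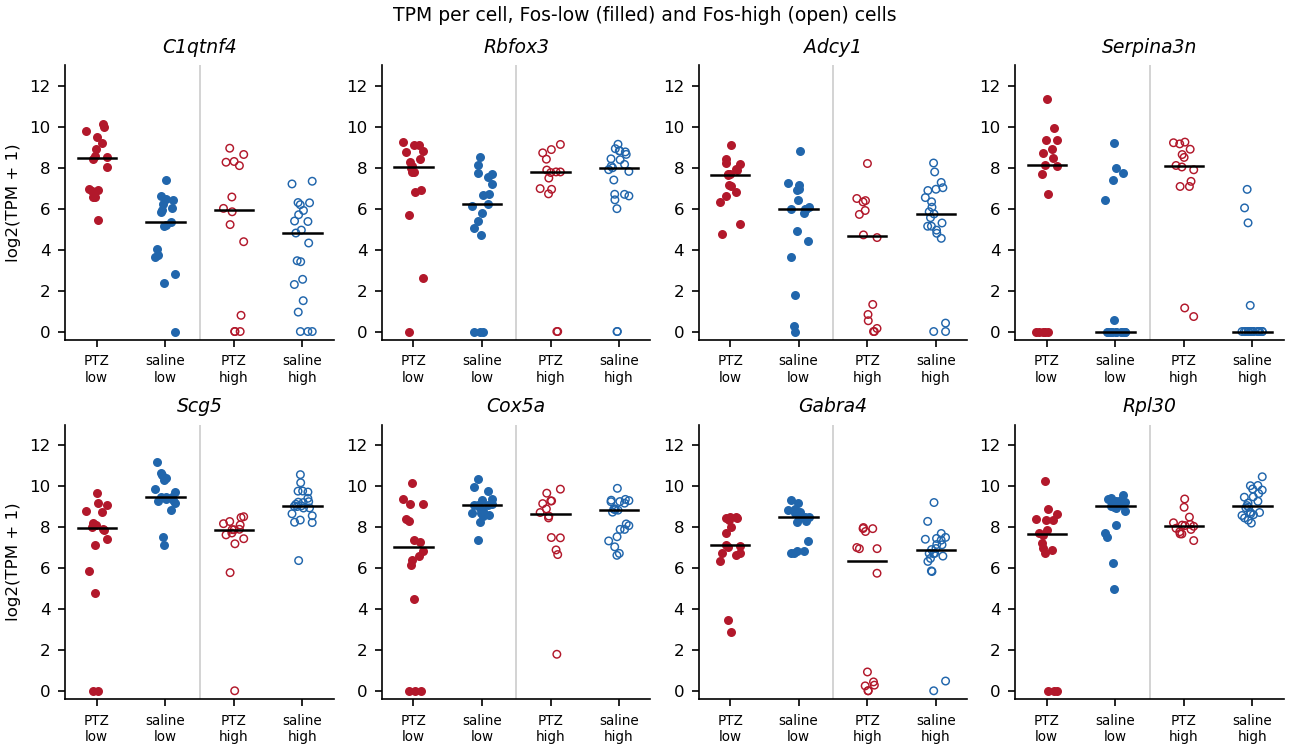
Each point is 1 cell (log2(TPM + 1), jittered sideways) in *Fos*-low (filled) and *Fos*-high (open) cells of PTZ-treated (red) and saline-treated (blue) mice, with bars at the medians. In *Fos*-low cells *C1qtnf4*, *Rbfox3*, *Adcy1* and *Serpina3n* lie higher and *Scg5*, *Cox5a*, *Gabra4* and *Rpl30* lower after PTZ, with overlapping ranges in each panel.

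Glutamate receptor genes had 1 of 9 members past the level limit, near the 12% of all genes. This was *Grik2*, a kainate receptor subunit gene of mossy fibre synapses, with medians of 44.5 and 127 TPM. The AMPA receptor genes *Gria1* (344 and 455 TPM) and *Gria2* (1140 and 1049 TPM) and the NMDA receptor genes *Grin1* (270 and 177 TPM) and *Grin2b* (243 and 181 TPM) did not pass. Without the 4 cells low in 7SL RNA the PTZ medians of *Gria2*, *Grin1* and *Grin2b* were 709, 131 and 160 TPM, under those after saline, so their direction turned. *Grik2* left the comparison without the 2 cells that lacked *C1ql2* and without the 4 cells low in 7SL RNA, and its log2 ratio of -1.51 was -0.84 with TMM factors and -0.80 after thinning to 400000 counts.

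Of 15 calcium signalling genes compared for level, *Adcy1* was higher and no other passed the limit, against 12% of all genes. *Camk2a*, a kinase gene of synaptic plasticity, had medians of 793 and 1111 TPM and did not pass. Of 27 vesicle release genes, *Vamp1* was higher in presence, and of 16 compared for level *Pclo*, an active zone scaffold gene, was lower, with medians of 9.48 and 29.2 TPM. These counts stand against 1.19% of all genes for presence and 12% for level. *Snap25*, a SNARE gene of the plasma membrane, had medians of 1278 and 1991 TPM and did not pass.

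No member passed among 25 potassium channel genes, whose median difference in share was -2.94 percentage points, or among 10 receptor genes for acetylcholine, monoamines and peptides, at -3.68. With 1.19% of all genes past the presence limit, a count of 0 in lists of this size is near the background. *Kcnk1*, a leak channel gene, had medians of 152 and 238 TPM, and its PTZ median was 260 TPM without the 4 cells low in 7SL RNA, which turned the direction. *Chrm1*, a muscarinic receptor gene, had medians of 147 and 213 TPM, and *Chrna7*, a nicotinic receptor gene, was present in 2 of 16 and 4 of 17 cells. *Dap*, a death-associated protein gene, was present in 0 of 16 and 1 of 17 cells. Of 24 heat shock and unfolded protein response genes compared for presence, *Ddit3* alone passed, again against 1.19% of all genes. *Hsp90ab1* and *Hsp90aa1*, cytosolic chaperone genes, had medians of 984 and 1463 TPM and of 870 and 1158 TPM.

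Of 18 granule cell markers compared for presence and 7 for level, none passed a limit, against 1.19% and 12% of all genes. The 7 had a median log2 ratio of 0.04. Without the 4 cells low in 7SL RNA, *Lct* and *Stxbp6* passed as lower and *Sema5a* as higher after PTZ. *Lct* was then present in 4 of 12 PTZ-treated and 14 of 17 saline-treated cells. PTZ and saline medians were 87.8 and 279 TPM for *Stxbp6* and 123.5 and 58.6 TPM for *Sema5a*. Of 5 markers of immature granule neurons that could be compared for presence, *Tubb2b* passed, against 1.19% of all genes. *Stmn1* was present in 11 and 16 cells, *Ncam1* in 15 and 17, and *Dcx*, the doublecortin gene of migrating neurons, in 4 and 3.

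Cytosolic ribosomal protein genes had 2 of 64 members past the level limit, *Rpl29* (medians of 104.8 and 309.5 TPM after PTZ and saline) and *Rpl30*, against 12% of all genes. Their median log2 ratio was -0.04. Of the 81 compared for presence, 66 had a lower and 5 a higher share after PTZ, with a median of -6.25 percentage points, and without the 2 cells that lacked *C1ql2* this median was -1.26, and without the 4 cells low in 7SL RNA 0. Oxidative phosphorylation genes had 1 of 53 past the level limit, also against 12% of all genes. This was *Cox5a*, a subunit gene of cytochrome c oxidase, which ranged from 0 to 1133 TPM (median 130) after PTZ and from 166 to 1276 TPM (median 530) after saline. Most PTZ-treated cells, 10 of 16, were under the lowest saline-treated cell. The PTZ median was 229 TPM without the 4 cells low in 7SL RNA, still past the limit. The median log2 ratio of the 53 genes was -0.02, and the median difference in share over 75 was -6.62 percentage points. These were 0.10 and -2.52 without the 2 cells that lacked *C1ql2*, a turn in sign and a smaller difference.

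Of 4 sex-linked genes compared for presence, *Ddx3y* passed as lower after PTZ, present in 2 of 16 and 9 of 17 cells, against 1.19% of all genes. It was no longer past the limit without the 2 cells that lacked *C1ql2* or without the 4 cells low in 7SL RNA, which were also low in Y-linked RNA.

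**Figure D5:**
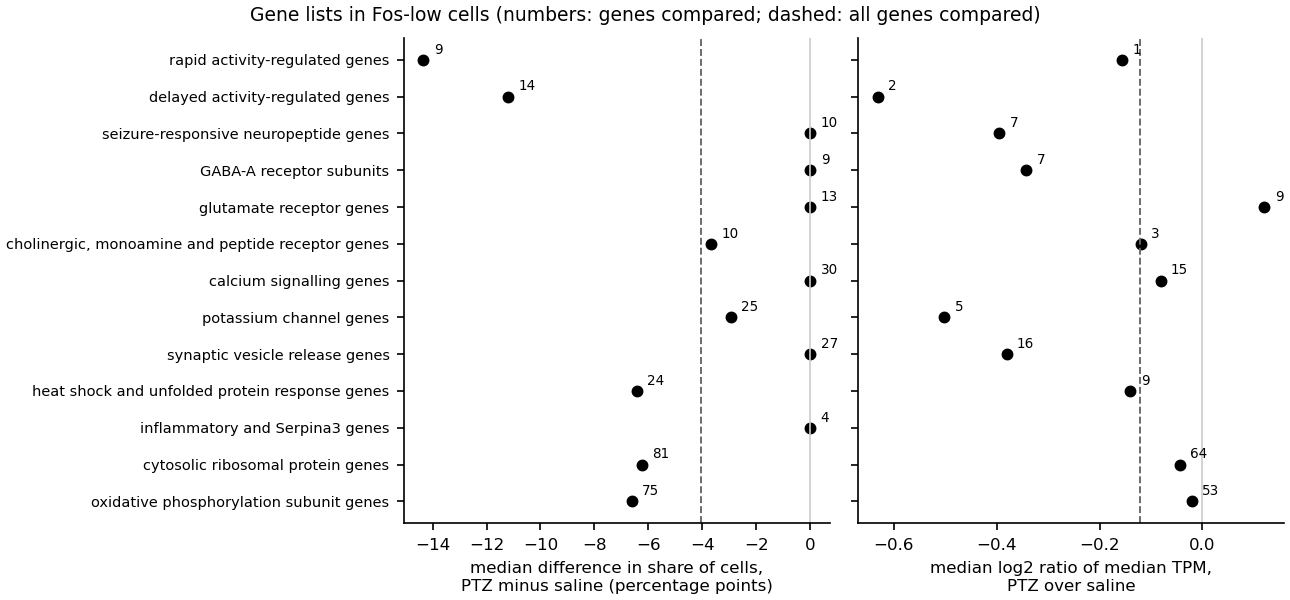
Points are medians over the genes of each list of the difference in share of cells (left, percentage points) and of the log2 ratio of median TPM (right), both PTZ against saline in *Fos*-low cells; small numbers give the genes compared, and dashed lines the medians over all genes (-4.04 and -0.12). Of the lists shown, which leave out the cell type markers and the sex-linked genes, the rapid activity-regulated genes have the lowest median difference in share (-14.3 percentage points, 9 genes).

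*Serpina3n*, a secreted protease inhibitor gene known for its induction in inflamed brain, was just short of the presence limit. It ranged from 0 to 2577 TPM (median 275) after PTZ and from 0 to 586 TPM (median 0) after saline. It was present in 11 of 16 cells (68.8%, exact interval 41.3 to 89.0%) and 5 of 17 (29.4%, 10.3 to 56.0%), a difference of 39.3 percentage points, 42.02 without the 2 cells that lacked *C1ql2* and 53.9 without the 4 cells low in 7SL RNA. In *Fos*-high cells it was present in 13 of 14 and 4 of 21. *Serpina3n* was chosen after its values were seen.

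Relatives of the same gene family, whose likeness in sequence was not measured here, appeared beside it at low counts. *Serpina3m* was above 1 TPM in 9 PTZ-treated and 0 saline-treated cells, *Serpina3g* in 8 and 0, and *Serpina3c* in 8 and 1. All 10 PTZ-treated cells with a relative also held *Serpina3n*, which made up 95.8% of the summed TPM of the family, and reads that the relatives share with it may be divided between them. A share of 0 of 17 cells allows up to 17.6%. Of 4 inflammatory genes compared for presence, *Serpina3n* among them, none passed, and 0 were compared for level. With 1.19% of all genes past the presence limit, this count is near the background. *B2m*, the light chain gene of class I antigens, was present in 9 and 11 cells, and in 8 of 12 PTZ-treated cells without the 4 low in 7SL RNA.

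The 7SL RNA genes *Rn7s1* and *Rn7s2*, which encode the RNA of the signal recognition particle, were identical in value in every cell. Together they took 6.74% of all TPM after PTZ (median, range 0.0947 to 10.97%) and 2.89% after saline (2.05 to 5.45%), a level 2.34-fold higher. In *Fos*-high cells the shares were 7.35% and 2.72%. As described for the cells, 12 PTZ-treated cells were above every saline-treated cell and the other 4 under the lowest. This RNA lacks a poly(A) tail, and its share lowers the TPM of all other genes of a cell. *Gm1821*, a ubiquitin pseudogene, had medians of 656 and 2363 TPM, and its sum with *Ubb*, the ubiquitin gene, 3115 and 5466 TPM. Plate and treatment cannot be told apart in these values. The 7SL genes and *Gm1821* were chosen after their values were seen.

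*Fos*-high cells share the pools and plates of the *Fos*-low cells but no cell with them. Among these *Fos*-high cells, 6 of 14 after PTZ and 3 of 21 after saline were rich in markers of immature granule neurons or of astrocytes. The summed TPM of immature granule neuron markers was 6213 to 10284 in 5 of 14 PTZ-treated and 7000 to 10625 in 3 of 21 saline-treated *Fos*-high cells, and at most 2223 and 1332 in the others. Another PTZ-treated cell held 13058 TPM of astrocyte markers, which reached 188 TPM in the saline-treated cells. Values are therefore also given without these 6 and 3 cells, a choice made after the values were seen. Between their treatments, 180 of 9518 genes passed the presence limit (1.89%), 116 (1.22%) higher and 64 (0.672%) lower after PTZ. The level limit was passed by 141 of 1523 genes (9.26%), 42 (2.76%) higher and 99 (6.5%) lower. Of the genes past the presence limit, 6 passed in both sets in the same direction (6.38% of the 94 and 3.33% of the 180) and 0 in opposite directions. These were *Gm12191*, *Gm12892* and *Tubb2b*, higher, and *Gm15772*, *Gm7658* and *Pcna-ps2*, lower, so that 5 of the 6 were gene models or pseudogenes. Among the 8 and 18 *Fos*-high cells left without the cells rich in these markers, 202 of 8627 genes passed the presence limit (2.34%), 166 (1.92%) higher and 36 (0.417%) lower. Of these, 6 also passed in *Fos*-low cells in the same direction, namely *Gm12191* and *Ppie*, higher, and *Gm15772*, *Gm37612*, *Gm7658* and *Pcna-ps2*, lower.

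At the level limit, 9 genes passed in both sets in the same direction (5.17% of the 174 and 6.38% of the 141) and 7 in opposite directions. The 9 were *Dcaf6*, *Emc10*, *Gm15662*, *Gm1821*, *Gm37932*, *Itch*, *Rn7s1*, *Rn7s2* and *Scg5*. Of the 94 and 174 genes, 89 and 86 could be compared in *Fos*-high cells, where 47 and 52 had the same sign and 35 and 34 the opposite sign. Without the 2 cells that lacked *C1ql2*, 9 and 13 genes passed in both sets, and without the 4 cells low in 7SL RNA 10 and 18. Among the 8 and 18 *Fos*-high cells, 230 of 2377 genes passed the level limit (9.68%), 75 (3.16%) higher and 155 (6.52%) lower, and 13 of them passed in the same direction as in *Fos*-low cells, *C1qtnf4*, *Atp2b3* and *Scg5* included.

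None of the 16 genes with descriptive symbols that led the presence comparison passed the limit in all *Fos*-high cells, and *Ppie* alone passed among the 8 and 18. *Crtc3* was present in 9 of 14 PTZ-treated and 9 of 21 saline-treated *Fos*-high cells, *Vamp1* in 6 and 10, *Ei24* in 8 and 10, *Shisa5* in 8 and 4, and *Atp13a1* in 10 and 9. *C1qtnf4* had medians of 60.03 and 27.02 TPM in *Fos*-high cells, and 290.0 and 28.5 TPM without the cells rich in these markers. *Rbfox3* had medians of 218 and 254 TPM. *Scg5* had medians of 232 and 522 TPM, 2.25-fold lower after PTZ. *Gabra4* had *Fos*-high medians of 87.0 and 118 TPM, but was at 1 TPM or less in 6 PTZ-treated and 2 saline-treated cells, of which 5 and 2 were cells with high immature or astrocyte markers. Without the latter its medians were 172 and 120 TPM. The difference between the *Fos*-low and the *Fos*-high comparison was not tested for any gene.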

How the data were processed

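Each sample was 1 cell, sequenced from a Smart-seq2 library. The authors aligned reads to mm10 (GRCm38) with RSEM and Bowtie 1.0.0, per the submitters' processing notes. The deposited expected counts are RSEM's estimates of reads per gene, not normalized, and the deposited TPM values are the same estimates scaled by the authors for gene length and cell total. No symbol of a spike-in or of a mitochondrially encoded gene was found in the values used, so neither could serve as a check of the cells.

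Cells were grouped by their labels, and *Fos* and total count chose the members. Genes were compared by share of cells above 1 TPM and by median TPM (SciPy 1.17.1, pandas 2.3.3), with limits of size instead of tests. edgeR 4.0.16 gave TMM factors for 1 alternative. No doublet caller was run on these sorted single cells. Expected counts were thinned at random to 400000 or 60000 counts per cell. The code was tested on simulated data.

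The members and gene lists were chosen with earlier results of these data known. Named were, in each direction, the 8 genes and 3 gene models with the widest difference in share, the 6 with the widest ratio of medians, list members past a limit with up to 4 others, and *Fos*, *Arc*, *Egr1*, *Rbfox3*, *Prox1*, *Chrna7* and *Dap*. Some genes and a sequence that this rule would name are not reported here. Positions and sequences are from GENCODE M21. The libraries carried no molecular identifiers, and reads copied from 1 molecule are not independent, which leaves every interval and limit a measure of counting error alone.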

Additional observations from a re-analysis of the deposited data

How the results depend on the processing

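For the named genes past a limit, 33 for presence and 32 for level, 611 of 613 values under the alternatives kept their direction, although several fell short of the limit as given beside them. These genes had passed a limit in the same cells, and most alternatives reuse most of those cells. The count was thus largely set by the choice of genes and is no independent check. Genes that did not pass are not in this count, and *Gria2*, *Grin1*, *Grin2b*, *Kcnk1* and *Arc* turned without the 4 cells low in 7SL RNA. The exceptions were *Bin2* at a presence limit of 5 TPM (0.368 percentage points) and, at a *Fos* limit of 1 TPM, which left 4 PTZ-treated and 8 saline-treated cells, *Gm37932* (log2 ratio 1.12). The number of genes past the presence limit was 143 among cells over 400000 counts, 152 after thinning to 400000 counts, 144 without the 4 cells low in 7SL RNA, and 27 at a difference of 50 percentage points, against 94. Of the original 94 genes, only 50, 35 and 65 were among the first 3 of these sets, and 37 stayed after thinning to 60000 counts. Of the original 174 genes past the level limit, 103 stayed among cells over 400000 counts and 85 after thinning to 400000. Without those 4 cells, 10 genes at the presence limit and 18 at the level limit also passed in *Fos*-high cells, against 6 and 9. The number past the level limit was 387 at a *Fos* limit of 1 TPM, 96 with presence at 5 TPM, 289 and 423 by mean log2(TPM + 1) and log2(TPM + 0.1), 3007 without a filter on genes, and 95 after thinning to 60000 counts, against 174. Splits into higher and lower also moved. The presence split was 31 to 46 after thinning to 60000 counts and 0 to 72 at a *Fos* limit of 1 TPM. The level split was 246 to 141 at that limit, 62 to 227 and 88 to 335 by mean log2 values, 66 to 167 among cells over 400000 counts, 61 to 144 after thinning to 400000, 48 to 114 without the 4 cells, 110 to 112 in counts scaled to the plain cell total, and 58 to 147 with TMM factors. Leaving out 1 cell at a time gave 82 to 138 genes past the presence limit, 175 to 230 past the level limit, and a difference in genes detected of -603 to -328. The cause was not tested in any of these. The filter on genes per cell, the mean minus 2 SD over all whole cells, lay at -5.39 genes. It could therefore remove no cell and is no check of their quality. Thinning to 60000 counts and leaving out the 2 or the 4 cells were chosen after seeing the data. No paired analysis was possible because each treatment was 1 pool and cell numbers pair nothing.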
